A study of Mus musculus with 52 samples.

Results

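Cadherins and protocadherins are the calcium-dependent adhesion molecules of the cadherin superfamily. They were described here in cloned kidney cells carrying missense alleles of Wdr34 or Wdr60, the genes of the intermediate chains of dynein-2, the motor that returns cargo from the tip of the cilium. The members were taken by gene symbol alone: names starting with Cdh and a digit, with Pcdh and a digit, or with Pcdha, Pcdhb or Pcdhg and a numbered or lettered suffix. This gave 94 of the 24421 symbols in the count table: 23 cadherins, 12 protocadherins outside the gene clusters, and 15 Pcdha, 22 Pcdhb and 22 Pcdhg genes of the 3 clusters on chromosome 18. The rule itself uses no measured value.

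RNA was sequenced from single-cell-derived clones of Cilia-APEX-IMCD3, a mouse inner medullary collecting duct line. The labels form 13 groups of a clone in a state, each with 4 technical replicate libraries and 52 in all, and each group is called a clone here. The methods name 4 control and 3 mutant clones in all, so that groups of different states may be the same clone, but the labels do not link them (control names differ between the sets), and the 13 are not independent clones. The mutant clones were homozygous for alleles made by CRISPR base editing, and the controls had been given the base editor BE4-Gam and a guide vector without a target. The ciliated set held the mutants Wdr34-1, Wdr34-3 and Wdr60 and the controls A4, D8, G7 and H12. The non-ciliated set held the mutants Wdr34 and Wdr60 and the controls 1, 2, 3 and AB. The alleles in the study's methods were WDR34 p.Arg183Trp, WDR34 p.Gly394Ser, whose cells also had an unintended heterozygous missense change, and WDR60 p.Ala911Val. The non-ciliated set had no p.Gly394Ser clone, and the labels do not say which allele Wdr34-1 and Wdr34-3 carried. Ciliated cells had been starved of serum according to the methods, while the labels give the same medium for all samples, so state, serum, clone set and time of sequencing cannot be told apart. Each genotype was represented by 1 to 3 clones in a state, and a clone's own history cannot be told apart from its allele in any comparison of a single mutant clone with controls.

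Classical cadherins hold neighbouring cells together at adherens junctions, where the extracellular repeats of like molecules bind each other and the cytoplasmic tail binds catenins that reach the actin cytoskeleton. Epithelia of the collecting duct rely on E-cadherin, encoded by Cdh1, while N-cadherin, encoded by Cdh2, marks many mesenchymal and neural cells and also parts of the nephron. Protocadherins lack the catenin-binding tail. The clustered ones are best known from neurons, where each cell uses a few alternative promoters of the Pcdha, Pcdhb and Pcdhg clusters under control of CTCF, cohesin and DNA methylation and so carries an adhesive identity of its own.

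Levels are given as CPM, counts scaled to a common library total by the trimmed mean of M-values over all 52 libraries, whose total counts ran from 14816218 to 28084979 with a median of 17414011.5. No 2 of the 78 pairs of replicate libraries were identical. Over 11592 genes all 4 libraries of the ciliated Wdr60 clone had a median correlation with their own clone under 0.99 (0.969 to 0.983), as did 1 library each of the non-ciliated Wdr60 clone, AB, A4 and G7. The lowest was replicate 1 of AB (0.966), which held low values of several members. Wdr34 ranged over 21.6 to 49.7 CPM and Wdr60 over 20.2 to 30.6 CPM across clones, and a missense allele need not change either, so these levels are no check of the labels. The line's label was borne out in part: the keratins Krt8 and Krt18 and the adhesion molecule Epcam were each at 76.5 CPM or more in 11 of 13 clones, whereas the water channel Aqp2 and the transcription factor Elf5, markers of principal cells, were at or near 0 in all of them.

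Promoters are shown for 3 members whose levels the comparisons turn on and for which a RefSeq promoter of build GRCm38.p6 was at hand: Cdh6, Pcdh19 and Pcdh18, of 22 members with an entry. Each runs from 250 bases before to 50 bases after an annotated start, on the minus strand, at chr15:13173626-13173925, chrX:133688944-133689243 and chr3:49757267-49757566. The annotated span of Cdh6 reaches chr15:13176407, so that its window lies at a start inside the gene. The capitals mark CG dinucleotides, the sites of DNA methylation.
Cdh6: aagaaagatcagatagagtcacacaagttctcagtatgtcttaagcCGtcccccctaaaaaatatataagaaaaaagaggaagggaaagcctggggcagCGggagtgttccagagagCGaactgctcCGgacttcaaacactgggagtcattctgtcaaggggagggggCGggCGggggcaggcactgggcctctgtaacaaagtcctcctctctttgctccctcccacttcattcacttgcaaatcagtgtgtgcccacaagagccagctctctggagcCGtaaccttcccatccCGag
Pcdh19: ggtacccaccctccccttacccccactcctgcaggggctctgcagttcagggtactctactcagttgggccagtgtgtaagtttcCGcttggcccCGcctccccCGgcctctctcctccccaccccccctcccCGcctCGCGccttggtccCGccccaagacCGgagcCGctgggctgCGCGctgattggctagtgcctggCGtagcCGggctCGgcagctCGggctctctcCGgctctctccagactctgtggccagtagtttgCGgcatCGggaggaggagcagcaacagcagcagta
Pcdh18: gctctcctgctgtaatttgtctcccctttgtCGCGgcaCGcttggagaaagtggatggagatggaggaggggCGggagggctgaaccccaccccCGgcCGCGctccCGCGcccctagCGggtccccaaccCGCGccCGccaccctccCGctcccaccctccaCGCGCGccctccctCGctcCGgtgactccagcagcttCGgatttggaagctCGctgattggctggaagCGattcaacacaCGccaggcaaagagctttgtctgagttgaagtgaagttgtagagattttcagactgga

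The Cdh6 promoter held 8 CG dinucleotides, the Pcdh19 promoter 18 and the Pcdh18 promoter 23, against a median of 7 in 32851 promoters of the same length. The Pcdh18 number was reached by 21.5% of all promoters and the Pcdh19 number by 29.7%. The letters CACCTG, the E-box through which Snai and Zeb repressors bind the Cdh1 promoter, were searched for on both strands and were in none of the 3 windows. They were in 20.2% of all promoters.

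Most members were silent or nearly so. Of the 94, 15 had no count in any library, 50 never reached 10 counts in a library and 44 did. None of the 15 Pcdha genes reached 10 counts in any library and 10 of them had no count at all. Among the 23 cadherins 8 reached 10 counts (Cdh1, Cdh2, Cdh3, Cdh6, Cdh13, Cdh16, Cdh17 and Cdh24), as did Pcdh1, Pcdh9, Pcdh18 and Pcdh19 of the 12 other protocadherins, 13 of 22 Pcdhb genes and 19 of 22 Pcdhg genes. Cdh5, the cadherin of endothelium, was at most 0.0746 CPM in any clone and Cdh11, the cadherin of mesenchyme, at most 0.283 CPM. A low count in bulk RNA can come from few cells with much transcript or from many with little, which cannot be told apart here. Reads of the clustered genes are uncertain in part, because Pcdha and Pcdhg transcripts share constant exons, Pcdhb genes are close copies of each other, and the setting for reads with several matches or for strand is not given in the sources used here.

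Per kilobase of exon, the order of the cadherins differed between the states. In ciliated controls Cdh16, kidney-specific cadherin, came first with 134 ± 62.7 CPM per kb (SD, n = 4 clones), followed by Cdh1 with 104 ± 67.4 and Cdh6 with 40.5 ± 16.6. Cdh2 stood at 31.9 ± 12.2 and Cdh3, placental cadherin, at 25.9 ± 3.60 CPM per kb. In non-ciliated controls Cdh2 came first with 83.4 ± 36.2 CPM per kb, ahead of Cdh16 with 62.8 ± 6.76, Cdh1 with 54.2 ± 37.7, Cdh3 with 45.6 ± 8.27 and Cdh6 with 18.6 ± 12.6. Each order rested on 1 clone: without G7 Cdh1 (138 ± 4.35 CPM per kb) stood above Cdh16 (103 ± 15.9) in ciliated controls, and without control 2 Cdh1 (72.0 ± 15.6) stood above Cdh16 (60.2 ± 5.05) in non-ciliated controls, behind Cdh2 (88.6 ± 42.5; SD, n = 3 clones each). With all 4 control clones of a state included, the ranges of clone values of neighbours among these cadherins overlapped. For Cdh3 and Cdh6 in non-ciliated controls they did so only narrowly (from 33.8 and up to 36.1 CPM per kb) and with no overlap of mean ± SD. Below these cadherins in ciliated controls were Cdh24 at 11.5 ± 2.57, Pcdh1 at 6.28 ± 4.08 and Pcdh19 at 5.82 ± 2.21 CPM per kb. Mean Cdh17 was lower, at 3.08 ± 3.22 and without G7 at 4.09 ± 3.07 (SD, n = 3 clones). Its clone values reached 7.48 CPM per kb. The clustered genes were not put on this scale.

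As log2(CPM + 0.5) of clone means, the member of widest range was Cdh1 (chr8:106603350-106670247, GRCm38.p6), and its range ran between control clones. Mean Cdh1 was 649 CPM in A4, 609 in D8 and 633 in H12 but 14.7 in G7, whose 4 libraries held 14.0, 15.9, 18 and 10.9 CPM. In the non-ciliated set it was 251 CPM in control 1, 346 in control 3 and 391 in AB but 4.27 in control 2, whose libraries held 4.37, 4.44, 4.81 and 3.45 CPM. All 8 libraries of G7 and control 2 lay below every library of the other 11 clones, and no mutant clone came near them: the mutants were at 609.8, 300.0 and 408 CPM in Wdr34-1, Wdr34-3 and Wdr60 of the ciliated set and 241 and 303 CPM in Wdr34 and Wdr60 of the non-ciliated set.

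Pcdh1, a protocadherin of airway and other epithelia, had the same clones at the bottom. It was at 2.23, 1.63, 2.48 and 1.96 CPM in the libraries of G7, while the other 3 ciliated control clones had means of 68.9 to 81.0 CPM, and at 10.2, 9.14, 10.1 and 8.80 CPM in those of control 2, with the other 3 at 19.5 to 58.0 CPM. Cdh17, liver-intestine cadherin, was at 0.238 CPM in G7 (16 counts in 4 libraries) and 0.112 CPM in control 2 (8 counts), against 6.65 to 33.5 and 0.993 to 1.77 CPM in the other controls of the same state. Cdh3 was lowest in these clones too, by a smaller margin, with 97.3 CPM in G7 against 104 to 131 and 148 CPM in control 2 against 205 to 233. Cdh6, kidney cadherin, did not share this: it was the lowest of the ciliated controls in G7 (159.8 CPM) and the highest of the non-ciliated controls in control 2 (326 CPM). Cdh16 was highest in G7 (857 CPM against 338 to 457) and in control 2 (269 CPM against 208 to 246). Cdh2 was highest in G7 among ciliated controls (386 CPM against 153 to 272), while control 2 with 548 CPM lay inside the range of 320.3 to 938 CPM of the others.

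Epithelial genes that are no members moved with Cdh1 in these clones. Epcam was 13.7 CPM in G7 against 631 to 836 in the other ciliated controls, and 2.89 CPM in control 2 against 180.3 to 386. Of the 10 collecting duct markers examined, whose summed level was lowest in G7 (528 CPM against up to 3507) and in control 2 (526 CPM against up to 2686), Krt8, Krt18 and Krt19 were also lowest there, while the developmental factors Pax2 (315 and 280.0 CPM) and Hoxb7 (84.9 and 55.9 CPM) were the highest of each control set there. Zeb1, a repressor of Cdh1, was 71.9 CPM in G7 and 82.7 CPM in control 2, the highest of each control set, and Zeb2 was too (16.9 and 35.9 CPM). Other repressors did not follow: Snai1 was lowest of all clones in G7 (0.118 CPM), Twist2 was the highest of the ciliated controls in G7 but in control 2 (40.6 CPM) below AB and control 1, Snai2 was under 1 CPM in every clone and Twist1 at 0. Zeb1 was 67.2 CPM in the ciliated mutant Wdr34-3, where Cdh1 was the lowest of the 3 ciliated mutants. The 5 endothelial markers summed to at most 0.185 CPM in any clone. Of the 8 fibroblast markers Thy1 was at 0 in every library, and the proteoglycan Dcn gave most of a summed level of up to 31.6 CPM in Wdr34-3. The 4 macrophage markers summed to 171 to 303 CPM in ciliated and 18.4 to 54.2 CPM in non-ciliated clones. Most of this was Csf1r, the receptor for colony-stimulating factor, which was highest in G7 (302 CPM), while Cd68 was at most 4.51 CPM, Ptprc under 1 CPM in every clone and Adgre1 at 0 in every library. The 5 neuron markers summed to 1.48 to 91.2 CPM, most of it the tubulin Tubb3, with control 3 highest, and the other 4 were under 1 CPM in every clone. The part of these genes in the levels of the members was not tested.

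**Figure D1:**
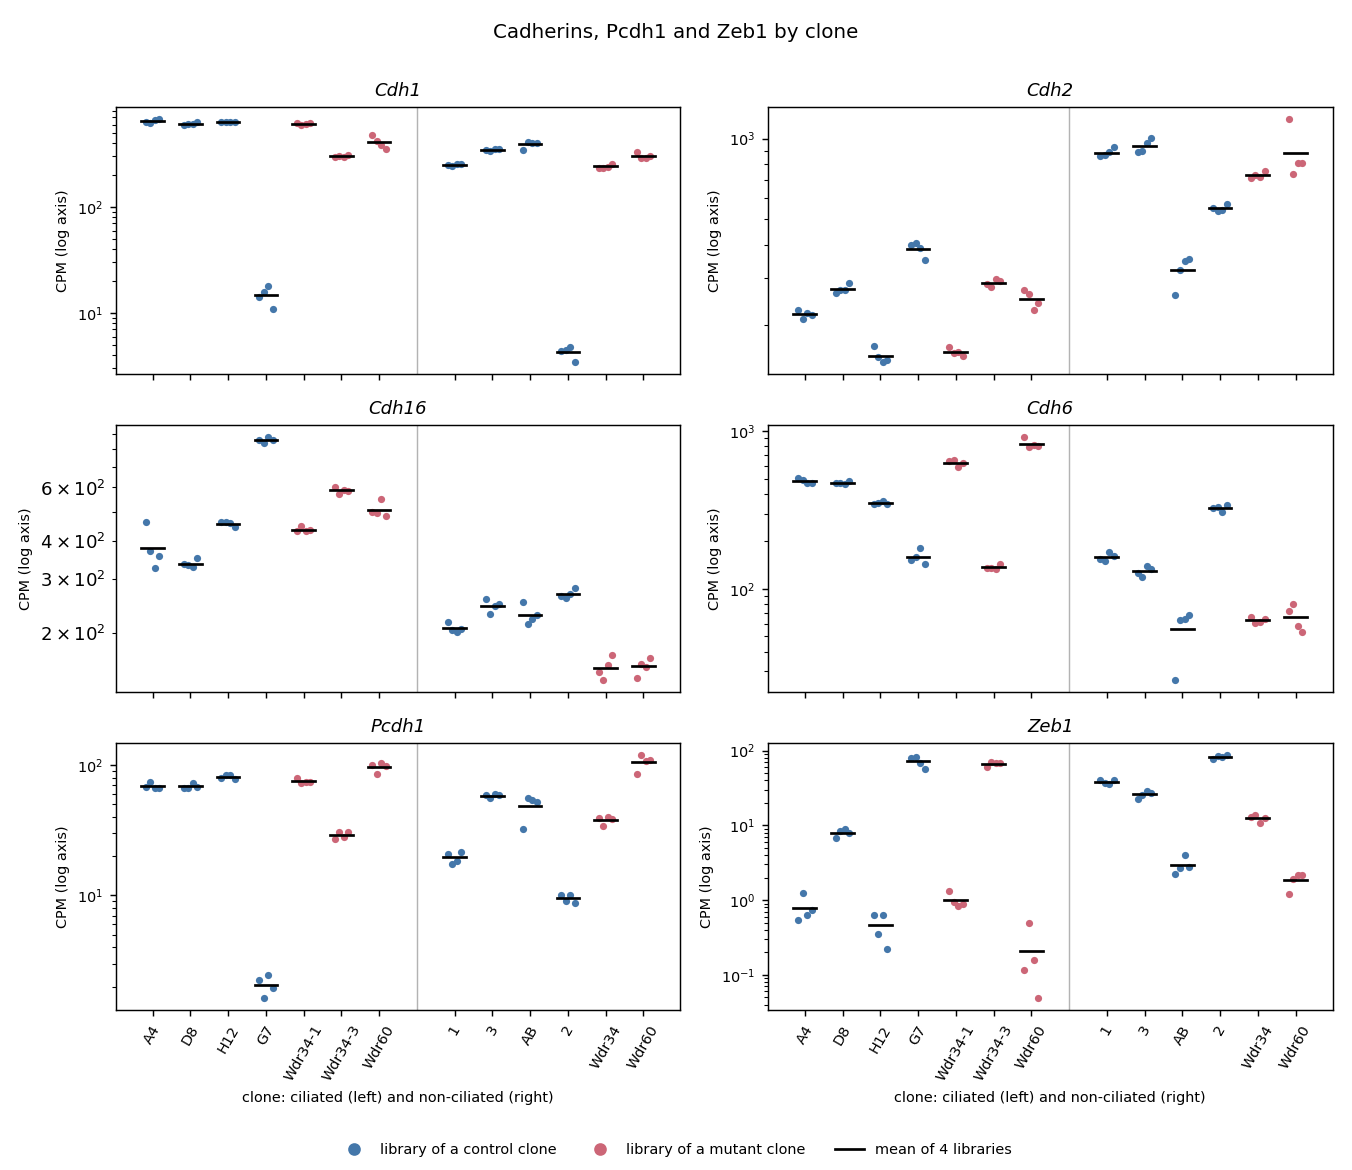
Level of 5 cadherins and protocadherins and of the repressor Zeb1 in each of the 52 libraries, in CPM on a log axis, by clone, with lines at the clone means. Cdh1 sat at 14.7 CPM in the ciliated control G7 and 4.27 CPM in the non-ciliated control 2, below all other clones, while Zeb1 was high in both and in the ciliated mutant Wdr34-3.

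Control clones of one label differed from each other in most of the members that could be tested. By edgeR's quasi-likelihood F test over libraries with Benjamini-Hochberg adjustment over all genes, 21 of 27 members tested differed among the 4 ciliated control clones with a range of clone means of at least 1 on the log2 scale, where 32.9% of all genes tested did so. In the non-ciliated controls 22 of 27 did, against 25.6% of all genes. The median range over the members tested was 1.64 and 1.88 on the log2 scale, against 0.71 and 0.60 over all genes. Without G7 the ciliated count was 8 of 26 (17.1% of all genes), and without control 2 the non-ciliated count was 14 of 24 (13.9%), both chosen after seeing the data. Cdh13, Pcdhb20 and Pcdhga10 were called in both states with and without these clones. These p-values rest on technical replicates of a clone and measure only the spread between libraries.

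A few members were present in some clones and absent from others, as the plot of on-and-off members by library shows. Cdh13, the lipid-anchored T-cadherin, had no count in any library of A4, H12, Wdr34-1, AB or the non-ciliated Wdr34 clone. It was at 1.35, 1.66, 1.69 and 1.95 CPM in the libraries of D8, 5.11, 5.51, 3.88 and 4.62 CPM in those of control 3 and 8.71, 5.35, 4.75 and 3.95 CPM in those of the non-ciliated Wdr60 clone. The Wdr60 name was positive in both states, with a mean of 2.73 CPM in the ciliated and 5.69 CPM in the non-ciliated clone, and controls were found on both sides in each state. Pcdh9, a protocadherin known from neurons, was at 4.99, 4.25, 3.63 and 6.10 CPM in the libraries of Wdr34-3 and at 0.497 CPM in control 3. It had 7 counts over the 4 libraries of D8, 1 in the non-ciliated Wdr34 clone and none in the other 9 clones. A count of 0 in a library allows up to 3 counts, which covers counting error only. Pcdh18, a protocadherin outside the clusters, was above 1 CPM in 4 clones: Wdr34-3 (1.35, 1.19, 1.08 and 1.55 CPM), AB (1.45, 2.13, 2.27 and 1.86 CPM) and the non-ciliated Wdr34 (2.47, 2.74, 3.43 and 3.92 CPM) and Wdr60 (3.13, 1.82, 1.47 and 2.01 CPM) clones. The other 9 clones had means of 0 to 0.208 CPM, and the ciliated Wdr60 clone was among them with 0.134 CPM.

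**Figure D2:**
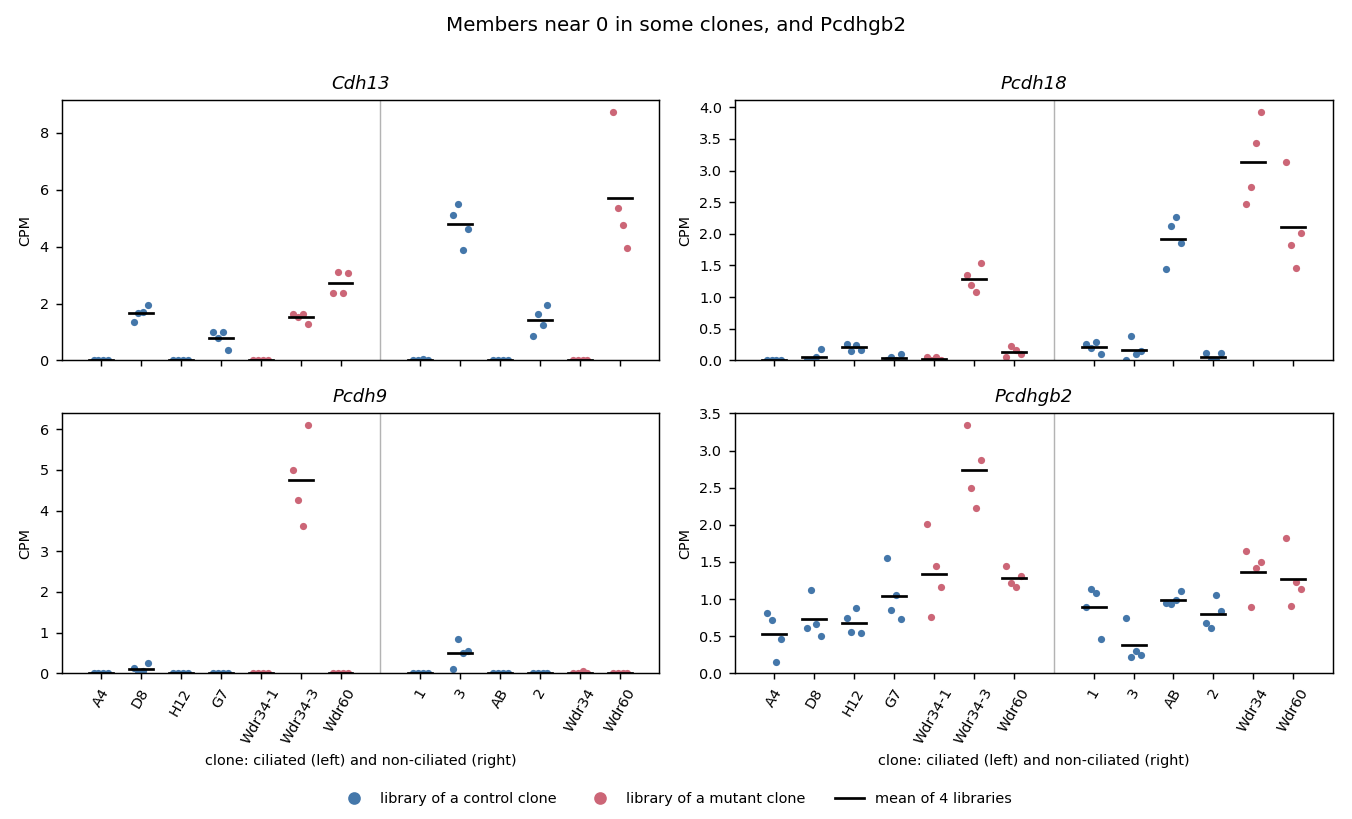
Level of Cdh13, Pcdh18, Pcdh9 and Pcdhgb2 in each library, in CPM, by clone, with lines at the clone means. Cdh13 was at 0 in all 4 libraries of 5 clones, Pcdh9 was high only in Wdr34-3 (4.74 CPM), and Pcdhgb2 was higher in every mutant clone than in any control clone of the same state.

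In the clusters, transcript came from Pcdhb and Pcdhg. The 15 Pcdha genes together stayed at or below 0.0708 CPM in every clone. The Pcdhb sum was 107 CPM in Wdr34-3, 90.5 in G7 and 71.4 in control 2, and 10.6 (AB) to 44.6 CPM (ciliated Wdr60) in the other 10 clones. These 3 clones were also those with the highest Zeb1. The Pcdhg sum ran from 58.0 to 174 CPM, and Pcdhgc3, a C-type gene at the end of its cluster, took 76.2% to 90.8% of the counts assigned to the cluster in every clone. Pcdhb16 had the widest range of the clustered genes on that log2 scale, from 1.01, 1.14, 1.63 and 1.27 CPM in the libraries of AB to 36.3, 45.3, 37.0 and 28.3 CPM in those of G7. Wdr34-3 was next with 33.4 CPM and control 2 followed with 24.2 CPM. Pcdhb17 (1.48 to 16.7 CPM), Pcdhb18 (0.739 to 16.9 CPM), Pcdhb19 (0.469 to 3.66 CPM) and Pcdhb20 (0.694 to 5.23 CPM) each had AB lowest and Wdr34-3 highest. Wdr34-3 was likewise the highest clone for Pcdhb14 (4.57 CPM), Pcdhb15 (1.99), Pcdhb21 (2.63), Pcdhb22 (19.4), Pcdhga4 (1.82), Pcdhga10 (8.63) and Pcdhgb2 (2.73). Close copies among these genes may exchange reads, so their parallel levels are not independent of each other.

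**Figure D3:**
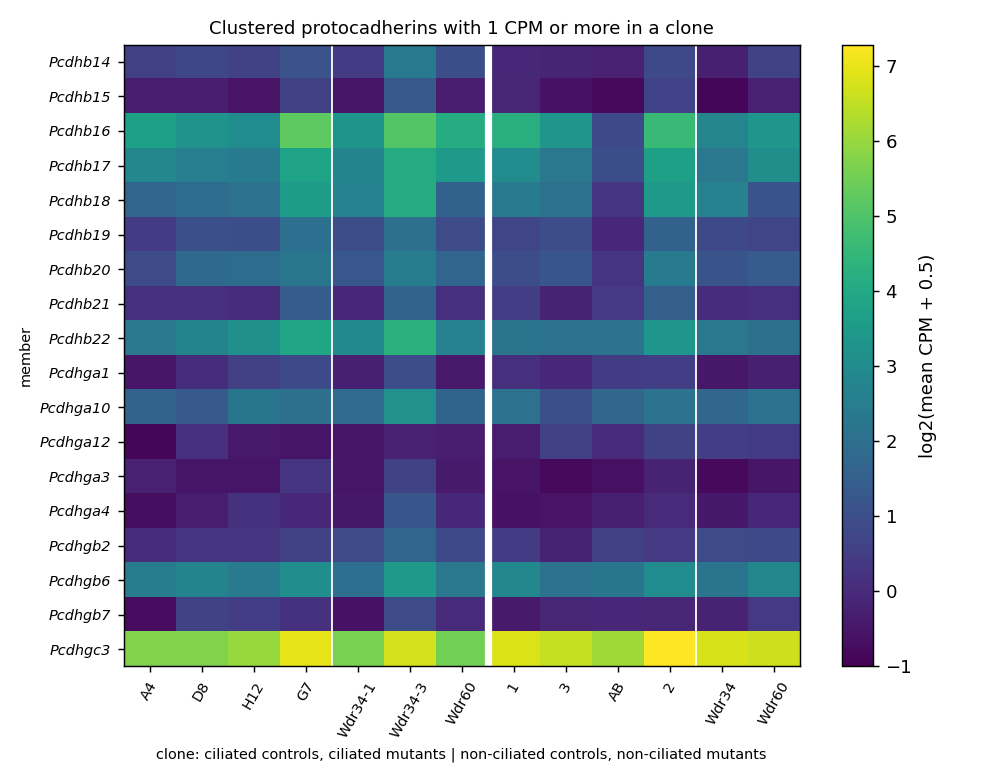
Heat map of the 18 clustered protocadherins with at least 1 CPM in a clone, as log2(CPM + 0.5) of the clone means, with genes in rows and the 13 clones in columns. Pcdhgc3 was the strongest row in every clone. Of the 9 Pcdhb rows 5 were lowest (darkest) in AB, whose Pcdhb sum was 10.6 CPM, and 8 highest (palest) in Wdr34-3.

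Over the 59 clustered members, libraries were most like those of their own clone. Pearson's r of log2(CPM + 0.5) over these members was 0.949 to 0.992 (median 0.980) between libraries of one clone and 0.816 to 0.984 (median 0.952) between libraries of different clones, and 50 of 52 libraries were most like a library of their own clone. Libraries of a clone were technical replicates, so depth and handling may be shared within a clone. Over the 18 members with at least 1 CPM in a clone the median was 0.981 within and 0.940 between clones. Among clone means, G7 and control 2 were each other's nearest clone in the opposite state by Pearson's r (r = 0.985), as were A4 and control 1 (r = 0.986) and, over all 59 members but not over these 18, Wdr34-1 and the non-ciliated Wdr34 clone (r = 0.976). The ciliated Wdr60 clone was nearest in the other state to the non-ciliated Wdr60 clone (r = 0.977), which in turn was as near to D8 (r = 0.977). By Spearman's rank correlation over the 59 members none of these pairs was mutual. Control 2 was nearer to the ciliated Wdr60 clone (0.945) than to G7 (0.919), and A4 to control 2 (0.918) than to control 1 (0.908). Wdr34-1 was nearer to control 2 (0.938) than to the non-ciliated Wdr34 clone (0.924). The ciliated Wdr60 clone was nearer to control 1 (0.947) than to the non-ciliated Wdr60 clone (0.941). Over the 18 members with at least 1 CPM in a clone, Spearman's correlation did make the ciliated and non-ciliated Wdr60 clones mutual (0.957). The next value for the non-ciliated one was 0.948 with D8. The other pairs were not mutual over these 18 either. AB had no near clone, its r with the others being 0.867 to 0.940.

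The first comparison asked which members differed between all ciliated mutants and all ciliated controls. Pcdhgb2 alone was called, and it was higher in the mutants. Its clone means were 0.535, 0.725, 1.05 and 0.683 CPM in A4, D8, G7 and H12, with libraries between 0.158 and 1.55 CPM. They were 1.34 CPM in Wdr34-1 (libraries 2.01, 0.753, 1.44 and 1.17), 2.73 in Wdr34-3 (3.35, 2.50, 2.22 and 2.87) and 1.29 in Wdr60 (1.44, 1.22, 1.17 and 1.32). Clone means did not overlap, single libraries did, and the gene had 37 to 205 counts over the 4 libraries of a clone. Group means were 1.79 ± 0.819 CPM (SD, n = 3 clones) and 0.747 ± 0.216 CPM (SD, n = 4 clones). In edgeR's quasi-likelihood test with Benjamini-Hochberg adjustment its log2 fold change was 1.25 (SE 0.24, adjusted p = 0.00362). A call needed an adjusted p under 0.05 together with a change of 1 or more on the log2 scale in either direction, and 1 of 25 members tested was called higher and 0 lower, where 0.418% and 0.226% of all 11950 genes tested were. An unadjusted p under 0.05 was reached by 6 of the 25, a count for which no share over all genes is at hand. Over the 35 regroupings of 7 clones the exact 2-sided permutation p for Pcdhgb2 was 0.0286, the smallest this design allows, and the lowest adjusted value over all genes was 1. Without Wdr34-3 the log2 fold change was 0.80 and the gene was not called, nor was it with clone as a block in voomLmFit or with the libraries of a clone summed. Without single replicate numbers 0 to 1 members were called. More members were called without G7, without Wdr34-1, without Wdr60, by DESeq2 and with a filter of at least 1 count in any library. The shares over all genes under these settings are not at hand.

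No abundant cadherin was called between ciliated mutants and controls. Cdh1 was 439 ± 157 CPM (SD, n = 3 clones) in mutants and 476 ± 308 CPM (SD, n = 4 clones) in controls, a log2 fold change of -0.13 (SE 0.48, adjusted p = 0.918) in edgeR's test. Its sign turned to 0.07 without Wdr34-3 and to between 0.01 and 0.04 without A4, D8 or H12. The log2 fold change turned positive by the widest margin with clone as a block in voomLmFit. Without G7, the control clone low in Cdh1, it was -0.53 (SE 0.12, adjusted p = 0.00546) in edgeR's test, still under the fold limit. For Cdh2 the log2 fold change was -0.16 (SE 0.17), for Cdh16 0.00 (SE 0.16), for Cdh3 0.10 (SE 0.10) and for Pcdh1 0.26 (SE 0.48), and the groups overlapped in each. Cdh6 split the mutants. Its libraries held 913, 793, 819.8 and 804 CPM in Wdr60 and 646, 657, 593 and 624 CPM in Wdr34-1, above all 4 controls (482, 471, 159.8 and 349 CPM), and 135, 135, 134 and 143 CPM in Wdr34-3, below all of them. The pooled log2 fold change was 0.53 (SE 0.30, adjusted p = 0.349) in edgeR's test. Pcdhb5 was the 1 member whose clone means were lower in all mutants (0.375 to 0.448 CPM) than in any control (0.548 to 0.862 CPM), with a log2 fold change of -0.77 that missed the threshold by edgeR (adjusted p = 0.11). Mutant clone means lay above all controls in 1.17% and below them in 0.778% of all genes tested, which for 1 of 25 members each way is the background to read against.

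In the non-ciliated set 3 members were called between the 2 mutant and 4 control clones. Pcdh18 was higher in mutants, and Cdh6 and Pcdhga1 were lower. This was 1 of 24 members tested higher and 2 lower, where 0.491% and 2.57% of all 12012 genes were. None of the 3 was called once the technical replicates no longer counted as samples, either with clone as a block in voomLmFit (adjusted p = 0.252 for Pcdh18, 0.642 for Cdh6 and 0.765 for Pcdhga1) or with the libraries of a clone summed in edgeR (adjusted p = 0.976 for each). Pcdh18 was 2.62 ± 0.731 CPM (SD, n = 2 clones) in mutants and 0.588 ± 0.893 CPM (SD, n = 4 clones) in controls. Its log2 fold change in edgeR's test was 2.13 (SE 0.62, adjusted p = 0.0229). The clone means did not overlap, but AB with 1.92 CPM was next to the Wdr60 clone with 2.11 CPM, and without AB the log2 fold change was 4.16. The call was lost without control 1, without control 3 and without either mutant clone. Leaving out a single replicate number could also remove it. Cdh6 was at 66.6, 60.5, 61.6 and 64.7 CPM in the libraries of Wdr34 and 72.8, 80.4, 58.5 and 53.6 CPM in those of Wdr60. Control AB was at 26.5, 63.8, 64.1 and 67.9 CPM, the other controls at 159, 326 and 129.8 CPM, so that both mutants lay below 3 of the 4 controls. Both mutants were slightly above the mean of AB (55.5 CPM), which took in the low replicate 1, while the other AB libraries held 63.8 to 67.9 CPM. The log2 fold change was -1.37 (SE 0.34, adjusted p = 0.00922) in edgeR's test, and -0.83 without control 2, which is under the fold limit. The call was also lost without either mutant clone and without replicate 2, 3 or 4. Pcdhga1, an A-type gene of the Pcdhg cluster, was at 0.217 and 0.322 CPM in the mutants (14 and 21 counts over 4 libraries each) and 0.459 to 0.960 CPM in the controls. The log2 fold change was -1.40 (SE 0.33, adjusted p = 0.00604) by edgeR, and the call was lost without the Wdr34 clone and without replicate 2, 3 or 4. Without control 2 only 1 member was called in this comparison, so that besides Cdh6 at least Pcdh18 or Pcdhga1 was no longer called.

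Smaller differences that were steady across clones were found for Cdh16 and Pcdh19. Cdh16 was at 149.7, 141, 157 and 169.7 CPM in the libraries of the Wdr34 clone and 142, 159, 155 and 167 CPM in those of the Wdr60 clone. Controls had 217, 206, 202 and 207 CPM in clone 1, which was the lowest, and means of 269, 246 and 229.9 CPM in clones 2, 3 and AB. No mutant library reached the lowest control library, and the log2 fold change was -0.62 (SE 0.06, adjusted p = 1.56e-06) in edgeR's test, under the fold limit of 1. Pcdh19, an X-linked protocadherin, was at 85.5 and 93.0 CPM in the mutants and 46.5 to 72.6 CPM in the controls, a log2 fold change of 0.57 (SE 0.11, adjusted p = 0.000956) by edgeR. Pcdhgb2 was also above all controls here, with 1.37 and 1.27 CPM against 0.379 to 0.994 CPM and a log2 fold change of 0.78 (SE 0.26, adjusted p = 0.0407) by edgeR. It was the 1 member whose clone means did not overlap in the same direction in both states, a count for which no share over all genes is at hand. In all, 3 of 24 members lay above all controls (Pcdh18, Pcdh19 and Pcdhgb2) and 2 below (Cdh16 and Pcdhga1), where 6.95% and 6.08% of all genes did. With 15 regroupings of 6 clones the exact 2-sided permutation test cannot go below p = 0.0667, which Cdh16, Pcdh18 and Pcdh19 reached. Cdh1 was 272 ± 43.8 CPM (SD, n = 2 clones) in mutants and 248 ± 173 CPM (SD, n = 4 clones) in controls, and its log2 fold change of 0.13 (SE 0.63) turned to -0.28 without control 2 and -0.04 without the Wdr60 clone.

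**Figure D4:**
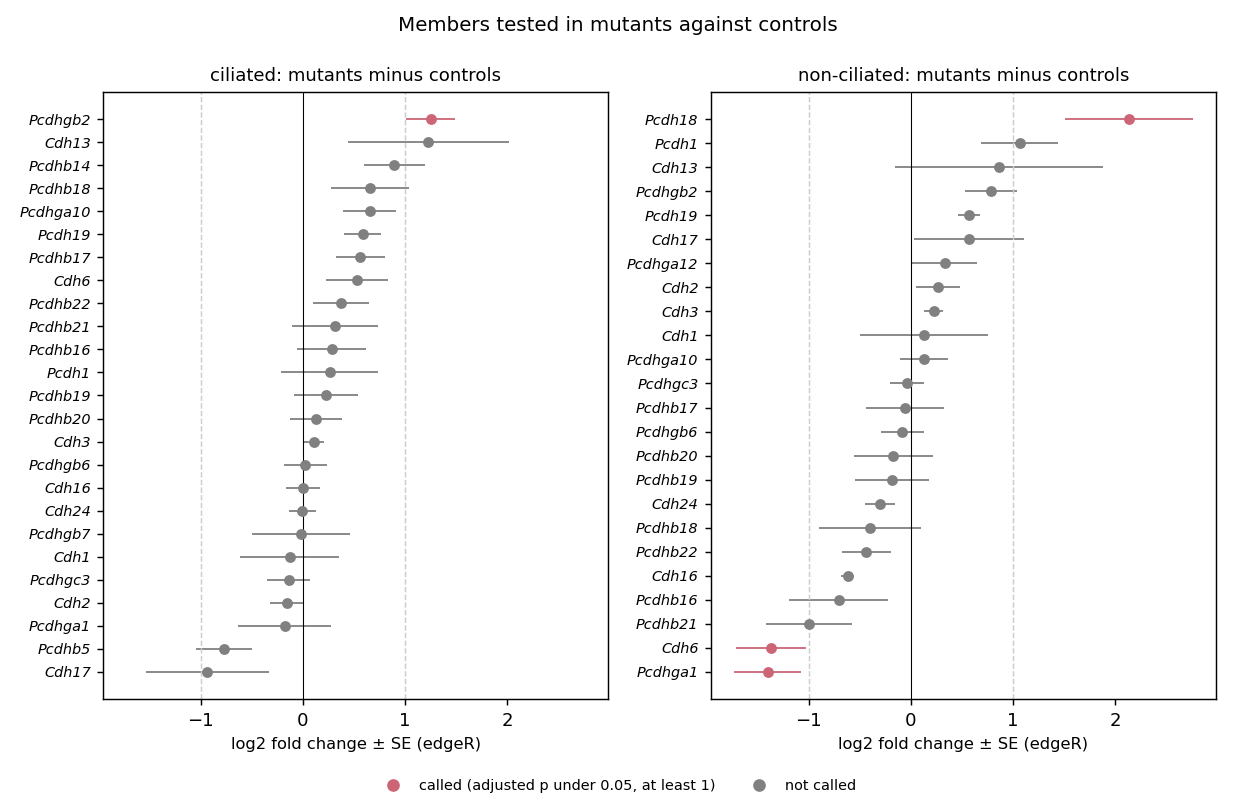
Log2 fold change of each member tested, mutants minus controls, with its standard error over libraries, in ciliated (left) and non-ciliated (right) cells. Red points were called and grey points were not. Pcdhgb2 at 1.25 was the called member on the left, and Pcdh18 at 2.13, Cdh6 at -1.37 and Pcdhga1 at -1.40 on the right.

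Cdh6 was the 1 member whose mutant effect differed between the states by edgeR's interaction test. The difference, ciliated minus non-ciliated, was 1.90 (SE 0.47, adjusted p = 0.0223) on the log2 scale, 1 of 30 members tested, where 1.12% of 12544 genes were called higher and 0.0638% lower. It was 1.37 and no longer called without control 2, which with 326 CPM was the highest of the non-ciliated controls. Without G7 8 members were called, for which no share over all genes is at hand, so that this count has no background to read against.

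Taken 1 clone at a time, the mutants differed in how many members set them apart from the controls of their state. These comparisons share the control clones. Wdr34-3 stood out with 14 of 33 members tested called higher, where 3.64% of all genes were, and 1 called lower (2.16%). Pcdh9, Pcdh18, Pcdhga2 and Pcdhga3, 4 of the 14, passed the filter on low counts in no other ciliated single-clone comparison, so that they were tested only where they were high, and among the 27 members tested in all 3 the count was 9. Ciliated Wdr60 had 1 of 28 higher (0.642%) and 0 lower (1.29%), and Wdr34-1 had none of 28 called (0.218% higher and 0.46% lower of all genes) in edgeR's test. In Wdr34-1 8 of the 28 had an unadjusted p under 0.05, a count for which no share over all genes is at hand. Among non-ciliated clones Wdr60 had 2 of 28 higher (0.986%) and 0 lower (2.43%), and Wdr34 had 0 of 27 higher (0.275%) and 1 lower (1.97%).

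Markers of other kinds moved in Wdr34-3 as well: by edgeR against the same controls the keratins Krt8 (76.5 CPM) and Krt18 (148 CPM) were called lower and Dcn (29.1 CPM) and Gata3 (2.86 CPM) higher, and their part in the members' levels was not tested. The 14 members higher in Wdr34-3 were 3 protocadherins outside the clusters and 11 clustered ones. Pcdh9 had a log2 fold change of 7.21 in edgeR's fit, which compares 361 counts in its 4 libraries with 7 in the 16 control libraries, all of them from D8. Pcdh18 had 3.88 and Pcdh19 1.01, with 111, 128, 126 and 129.5 CPM in the libraries of Wdr34-3 against control means of 35.7 to 86.3. Among Pcdhb genes the log2 fold changes were 2.13 for Pcdhb15, 1.87 for Pcdhb14, 1.65 for Pcdhb18, 1.40 for Pcdhb21, 1.21 for Pcdhb22 and 1.13 for Pcdhb17. Among Pcdhg genes they were 2.25 for Pcdhga4, 1.85 for Pcdhgb2, 1.80 for Pcdhga2, 1.48 for Pcdhga3 and 1.48 for Pcdhga10. The adjusted p by edgeR was at most 0.0496 in these 14, and 9 to 12 of the 15 calls were made when 1 replicate of each clone was left out. Pcdhb16, which was not called, was high in both Wdr34-3 and the control G7, with 33.4 and 36.7 CPM. Cdh6 was the member called lower in Wdr34-3, with a log2 fold change of -1.43 (SE 0.33, adjusted p = 0.00437) by edgeR.

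In ciliated Wdr60 the called member was Cdh6 again, in the other direction, with a log2 fold change of 1.18 (SE 0.28, adjusted p = 0.0164) by edgeR, and 0.93 without G7. The call was lost whichever replicate number was left out. In the non-ciliated Wdr60 clone Pcdh1 was at 84.7, 118, 107 and 109 CPM against control means of 9.56 to 58.0, a log2 fold change of 1.63 (SE 0.44, adjusted p = 0.0207), and Pcdhgb7 had 1.04 (SE 0.30, adjusted p = 0.0285) by edgeR. Leaving out a single replicate number could remove the calls of both Pcdh1 and Pcdhgb7. Pcdhgb7 passed the filter on low counts in neither the pooled non-ciliated comparison nor that of the Wdr34 clone, so that it was tested only with the clone where it was high. Pcdhga1 was the member called lower in the non-ciliated Wdr34 clone, at -1.70 (SE 0.44, adjusted p = 0.0177) by edgeR. In this clone, leaving out a single replicate number could leave no call. DESeq2, leaving out control 2 and leaving out the libraries that stood apart gave more calls, with no share over all genes at hand.

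Between the states, the calls in controls were all cadherins in the main test. Cdh16, Cdh17 and Cdh6 were higher in ciliated than in non-ciliated controls and Cdh2 was lower, 3 and 1 of 23 members tested, where 6.29% and 3.99% of 11856 genes were called. Cdh16 was 508 ± 238 CPM (SD, n = 4 clones) against 238 ± 25.6 CPM (SD, n = 4 clones), a log2 difference of 1.08 (SE 0.14, adjusted p = 6.76e-08) by edgeR, with no overlap of clone means. Without G7 the difference was 0.72, under the fold limit. Cdh2 was 258 ± 98.6 CPM (SD, n = 4 clones) against 673 ± 292 CPM (SD, n = 4 clones), a log2 difference of -1.40 (SE 0.20, adjusted p = 3.10e-07) by edgeR, and here G7 (386 CPM) and AB (320.3 CPM) overlapped. Cdh17 differed by 3.67 (SE 0.65, adjusted p = 1.23e-05) and Cdh6 by 1.13 (SE 0.27, adjusted p = 0.000687) on the log2 scale by edgeR, and both overlapped between states through G7. Cdh3 was 114 ± 15.8 CPM (SD, n = 4 clones) against 199.8 ± 36.3 CPM (SD, n = 4 clones), a difference of -0.82 (SE 0.08, adjusted p = 5.51e-10) by edgeR that was under the fold limit, and its clone means did not overlap. With the libraries of a clone summed to 1 sample, 2 of the 4 calls remained, Cdh16 and Cdh2. DESeq2 called more members than the main test, as did leaving out control 2, with no share over all genes at hand.

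The Wdr60 name, which the labels give in both states, showed the same directions for these 5 members. By edgeR over 4 libraries each, Cdh6 was higher in the ciliated clone by 3.66 (SE 0.15), Cdh17 by 2.06 and Cdh16 by 1.71 on the log2 scale, and Cdh2 was lower at -1.82 and Cdh3 at -1.09. Cdh24, a type II cadherin, was at 53.0 CPM in the ciliated and 26.5 CPM in the non-ciliated clone, a log2 difference of 1.0. Also lower in the ciliated clone were Pcdh18 (-3.90), Pcdhga12 (-1.46), Pcdhgc3 (-1.12) and Cdh13 (-1.05). In all, 4 of 26 members were called higher and 6 lower, where 9.33% and 5.77% of 11915 genes were. The 3 mutant clones of the methods leave 1 for WDR60, although the labels do not say that both groups are that clone, and the spread is that of libraries.

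**Figure D5:**
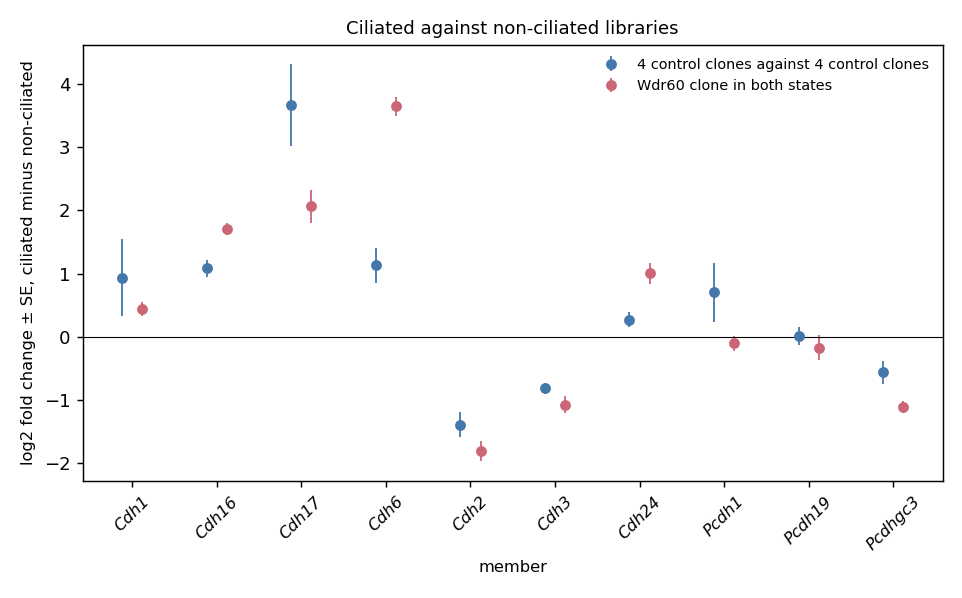
Log2 difference, ciliated minus non-ciliated, of 10 members in controls and in the Wdr60 clone, with standard errors over libraries and a line at 0. Cdh16 (1.08 in controls and 1.71 in Wdr60), Cdh17 and Cdh6 were above 0 in both and Cdh2 (-1.40 and -1.82) and Cdh3 below.

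Partners and regulators of the cadherins were described from lists chosen with earlier results known. Over all genes 0.418% were called higher and 0.226% lower in ciliated mutants, and 0.491% and 2.57% in non-ciliated mutants. Of the catenins and plakophilins, which couple cadherins to the cytoskeleton, none of 11 tested was called in ciliated mutants and 1 (Ctnnd2, lower) in non-ciliated mutants by edgeR, with median log2 fold changes of -0.02 and 0.09 against -0.01 and 0.00 over all genes. At an adjusted p under 0.05 and a range of at least 1 on the log2 scale, 6 of the 11 differed among ciliated control clones, against 32.9% of all genes, and 4 of 11 among non-ciliated control clones, against 25.6%, with a median range of 0.57 where it was 0.60 over all genes. G7 was the lowest of the ciliated controls in Jup, Pkp1, Pkp2 and Pkp3 and the highest in Pkp4 (474 CPM) and Ctnnd2 (16.5 CPM). Pkp3, a plaque protein of desmosomes, was 1.44 CPM in G7 and 2.51 CPM in control 2 against 76.3 to 87.7 and 24.8 to 50.7 CPM in the other controls. No desmosomal cadherin was called in mutants of either state (2 and 3 tested), while Dsc2 and Dsg2 differed among the control clones of both states. Of the atypical cadherins 0 of 5 and 1 of 5 (Fat2, lower) were called. Of the transcription factors that drive epithelial-mesenchymal transition 0 of 3 were called in ciliated and 2 of 4 (Zeb1 and Twist2, lower) in non-ciliated mutants, and all 4 tested (Snai1, Zeb1, Zeb2 and Twist2) differed among the controls of each state, against 32.9% of all genes in ciliated and 25.6% in non-ciliated controls. None of the 13 regulators of the clustered protocadherins, among them Ctcf and Smchd1, was called in mutants of either state, and 1, Dnmt3b, was called lower in Wdr34-3 alone against controls by edgeR. Among control clones 1 of the 13 differed in the ciliated set (Dnmt3b) and 2 in the non-ciliated set (Dnmt3a and Dnmt3b), both shares below those over all genes. The DNA methyltransferase Dnmt3b was 6.09 CPM in G7, 4.82 in Wdr34-3 and 8.49 in control 2, against 11.4 to 19.0 CPM in the other 10 clones. Its part in the levels of the clustered genes was not tested.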

How the data were processed

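RNA of 52 libraries was measured by mRNA sequencing. The authors mapped reads to GRCm38/mm10 with Rsubread in R 3.4.4 and deposited raw counts per gene symbol from featureCounts, and the submitters' processing notes also list DESeq2 1.18.1. Strand and multiple-match settings are not given in the sources used here.

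The whole table was fitted with edgeR 4.0.16 in R 4.3.3 (trimmed mean of M-values scaling, filterByExpr, quasi-likelihood F test, 2-sided), with Benjamini-Hochberg adjustment over all genes tested. A call needed an adjusted p under 0.05 together with a change of 1 or more on the log2 scale in either direction. The library was the sample in the main test. The 4 libraries of a clone are technical replicates, so these p-values measure only the spread between libraries, and an exact permutation test over clone means was added. A pseudocount of 0.5 CPM was used for log2 levels only. Counting intervals and limits cover counting error only. Total counts ran from 14816218 to 28084979 per library, so that 1 CPM is 14.8 to 28.1 counts before scaling. The symbols were matched to RefSeq, which held 93 of the 94 members, and exon lengths were taken from the GENCODE annotation of GRCm38. The scripts were tested on simulated data.

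Alternatives were DESeq2 1.42.0, other scaling and filters, limma 3.58.1 (voomLmFit with clone as a block), summed libraries, a replicate block, and leaving out each replicate number or clone. Those without G7 or control 2 in single-clone, control, state and per-kilobase comparisons, and those without libraries that stood apart, were chosen after seeing the data. Members and gene lists were chosen with earlier results of these data known. Named members were fixed by rule: Cdh1, Cdh2, Cdh3, Cdh5, Cdh6, Cdh11, Cdh13, Cdh16 and Pcdh1, every member called in mutants, the 12 clustered and 12 other members of widest range, and members whose clone means did not overlap in both states in 1 direction. Members outside this rule (Pcdhb5, Pcdhga2, Pcdhga3, Pcdhga12, Pcdhgb7 and Pcdhgc3) were named after their values were seen, and other genes as partners or markers from a list.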

Additional observations from a re-analysis of the deposited data

Results flagged for a closer look

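Within the 4 control clones of a state, 6 of 42 sets of clone means with a mean of at least 1 CPM had a clone far from the others by Dixon's criterion, which chance meets in about 1 of 20 sets. They were Cdh1 in G7 (14.7 CPM) and in control 2 (4.27 CPM), Pcdh1 in G7 (2.08 CPM), Pcdh18 in AB (1.92 CPM), Pcdhb21 in G7 (2.14 CPM) and Pcdhb22 in control 2 (9.84 CPM). G7 or control 2 accounted for 5 of the 6.

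Within the 4 libraries of a clone, 10 of 119 sets with a mean of at least 10 CPM had a library far from the others. Replicate 1 of AB was such a library for Cdh6 (26.5 CPM), Pcdh1 (32.3 CPM) and Pcdh19 (38.2 CPM), in each case the lowest of the clone. Replicate 4 of G7 was low in Pcdh19 (57.8 CPM), and replicate 2 of the ciliated Wdr60 clone was low in Cdh3 (72.8 CPM). Each of these 3 libraries was the one of its clone that agreed least with the others over all genes. The rest were Cdh16 in replicate 2 of Wdr34-1 (448 CPM), Cdh24 in replicate 1 of control 2 (53.8 CPM), Cdh6 in replicate 4 of Wdr34-3 (143 CPM), and Pcdh1 in replicate 2 of the non-ciliated Wdr34 clone (33.9 CPM) and in replicate 2 of A4 (74.5 CPM).

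The mutant effect on Cdh6 differed between the states in edgeR's interaction test, by 1.90 on the log2 scale (adjusted p = 0.0223), a difference that was not called without control 2. State, clone set and time of sequencing cannot be told apart in it.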

How the results depend on the processing

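Counts of called members were small and moved with many choices: 47 of 118 alternative counts differed from the reported one by more than 1.5 times, and of 390 alternative log2 fold changes 307 kept direction and side of the threshold, 76 lost the call and 7 changed sign. The cause was not tested, except that stricter filters test fewer genes and summed libraries leave fewer samples. For ciliated mutants against controls, reported as 1, DESeq2 gave 2, a filter of at least 1 count in any library gave 4, a filter of at least 10 counts in every library gave 0, clone as a block in voomLmFit gave 0 and summed libraries gave 0 (with 1 of 41 members at an unadjusted p under 0.05). Without Wdr34-1 it was 3, without Wdr34-3 0, without Wdr60 2 and without G7 5, and without single replicate numbers 0 to 1. For non-ciliated mutants, reported as 3, DESeq2 gave 5, at least 10 counts in every library 1, voomLmFit 0, summed libraries 0 (4 of 44 at an unadjusted p under 0.05), without Wdr60 1, without control 2 1, the adjusted p alone 6, and without single replicate numbers 0 to 2. Members differing among ciliated controls, reported as 21, were 33 with at least 1 count in any library, 13 with at least 10 counts in every library and 8 without G7. Among non-ciliated controls, reported as 22, they were 9 with at least 10 counts in every library and 14 without control 2. For the ciliated Wdr60 clone (reported as 1) the count was 0 without G7 and 0 without any single replicate number, for Wdr34-1 (0) it was 1 without G7, and for Wdr34-3 (15) it was 9 to 12 without single replicate numbers. For the non-ciliated Wdr60 clone (2) DESeq2 gave 4 and single replicate numbers left out gave 0 to 2. For the non-ciliated Wdr34 clone (1) DESeq2 gave 4, leaving out control 2 gave 2, leaving out the libraries that stood apart gave 3, and single replicate numbers left out gave 0 to 1. Between states in controls (4), DESeq2 gave 8, summed libraries 2 and leaving out control 2 7. The count of members whose mutant effect differed between states (1) was 8 without G7 and 0 without control 2. Shares over all genes under the same setting are at hand only for the control clones without G7 (17.1%) or without control 2 (13.9%). The other alternative counts, and those at an unadjusted p, have no such background to read against.

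The sign of the Cdh1 log2 fold change, which was not called, in ciliated mutants, reported as -0.13, turned to 0.77 with clone as a block in voomLmFit, 0.0726 without Wdr34-3, 0.0138 without D8, 0.0420 without H12 and 0.0438 without A4. In non-ciliated mutants, reported as 0.13, it turned to -0.0397 without Wdr60 and -0.28 without control 2. The median correlation of clustered profiles between clones was 0.97 over 59 members and 0.96 over the 18 with at least 1 CPM in a clone.

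Replicate numbers did not meet the criterion for pairing, a correlation over 0.1 in every pair: same-numbered libraries of different clones had a median correlation of deviations of 0.013 in ciliated (-0.400 to 0.806) and 0.021 in non-ciliated cells (-0.479 to 0.281), and 12 of 28 and 1 of 24 libraries were nearest to one of their own number. With a replicate block the count was 1 in ciliated and 3 in non-ciliated mutants, as without it, and 12 in Wdr34-3, where Pcdhb21, Pcdhga2 and Pcdhga3 were no longer called. The interaction was not fitted with the block. At these depths members under about 10 counts in a library, among them all Pcdha genes, could not be tested.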
